A study of Homo sapiens with 6 samples.

Results

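The replication-dependent histone genes supply the histones that package newly made DNA. They were taken as the protein-coding genes of GENCODE release 44 on chromosomes 1 and 6 whose symbols begin with H2AC, H2BC, H3C or H4C, together with H1-1 to H1-6 on chromosome 6. This rule gave 68 of 20033 protein-coding genes: 6 linker histone H1 genes, 17 H2A, 18 H2B, 13 H3 and 14 H4 genes. Open chromatin was mapped by Omni-ATAC, in which a transposase inserts adapters into accessible DNA, in MM.1S, an established human multiple myeloma cell line. One group of 3 libraries came from cells given CB-6644 at 120 nM for 72 h, which blocks the ATPases RUVBL1 and RUVBL2, and the other group of 3 came from cells given the solvent DMSO. Live cells were sorted before the assay. The labels do not say whether the libraries of a group came from separate cultures, so the spread between them may be technical.

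Histones H2A, H2B, H3 and H4 form the octamer around which DNA is wound, and H1 binds the linker DNA between octamers. The replication-dependent genes are transcribed chiefly in S phase at nuclear bodies organised by NPAT, and their mRNAs end in a conserved stem-loop bound by SLBP instead of a poly(A) tail. The genes lie in tight groups, and H2A and H2B genes often stand head to head and share the DNA between their start sites.

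The 68 genes fell into 6 clusters when genes up to 200 kb apart were joined. In the hg38 build, 32 genes lay in chr6:26017032-26285534, 16 in chr6:27807479-27893891, 11 in chr1:149811879-149887965 and 5 in chr6:27132316-27147562. The last 2 clusters, chr6:25726063-25727345 with H2AC1 and H2BC1 and chr1:228457364-228458558 with H2AC25 and H2BC26, held 1 pair each. All 68 canonical transcripts had 1 exon, with spans of 386 to 2224 bp and a median of 488 bp. There were 13 head-to-head pairs with start sites 194 to 979 bp apart (median 240 bp), and 12 of them joined an H2A gene to an H2B gene. The remaining pair, H3C7 and H2BC9, had the widest gap.

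The promoters below show the 3 kinds of layout among the genes the results turn on. They are given 5′ to 3′, with capitals for matches on either strand to the TATA box (TATAAA), the CCAAT box, the octamer (ATTTGCAT), an E2F-like element (TTTNGCGC) and the AC box of H1 genes (AAACACA), and overlapping matches run together. The first is the promoter of H4C12, an H4 gene, read on the minus strand of chr6:27831511-27831710 and ending 50 bases past the start site. The second is that of the linker gene H1-5, on the minus strand of chr6:27867539-27867738. The third is the whole stretch between the start sites of H2BC11 and H2AC11, on the plus strand of chr6:27132795-27133043, which serves an H2B gene and an H2A gene at once.
H4C12: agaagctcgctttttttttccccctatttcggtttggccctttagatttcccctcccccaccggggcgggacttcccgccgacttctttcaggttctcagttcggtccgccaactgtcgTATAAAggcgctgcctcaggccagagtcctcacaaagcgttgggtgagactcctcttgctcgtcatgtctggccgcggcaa
H1-5: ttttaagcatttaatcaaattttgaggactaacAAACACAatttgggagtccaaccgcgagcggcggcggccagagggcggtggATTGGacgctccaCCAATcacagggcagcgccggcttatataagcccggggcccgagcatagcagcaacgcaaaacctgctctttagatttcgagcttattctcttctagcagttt
H2BC11 and H2AC11: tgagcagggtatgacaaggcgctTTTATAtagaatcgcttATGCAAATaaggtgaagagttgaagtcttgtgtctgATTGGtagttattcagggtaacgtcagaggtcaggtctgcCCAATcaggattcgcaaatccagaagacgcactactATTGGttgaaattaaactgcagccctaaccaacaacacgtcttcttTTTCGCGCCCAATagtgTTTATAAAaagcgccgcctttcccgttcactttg
H4C12 held a TATA box and no CCAAT box in this stretch, H1-5 held an AAACACA element with 2 CCAAT matches, and the shared promoter held 3 TATA, 4 CCAAT, 1 octamer and 1 TTTNGCGC match.

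The same letters were counted in the 250 bp before to 50 bp after every start site, on both strands, and a match is a description of the sequence and not a bound site. A TATA box (TATAAA) occurred in 66.2% of the 68 histone promoters and in 9.72% of all 20033 promoters. A CCAAT box occurred in 86.8% against 36.1%, and was present in every H1, H2A, H2B and H3 promoter but in 35.7% of the H4 promoters. The octamer ATTTGCAT, the element read by OCT1, was found in 70.6% of H2A and 77.8% of H2B promoters, in 0 of the H1, H3 and H4 promoters, and in 1.62% of all promoters. Because paired genes share their intergenic stretch, the motif of 1 gene often falls in the window of its partner. The H1 genes stood apart by AAACACA, which was in 100% of their promoters and 4.21% of all promoters. The E2F-like TTTNGCGC was in 19.1% of the histone promoters against 2.28%, and the CRE core TGACGT was in 27.9% against 9.51%. The GC box GGGCGG went the other way, with 25% against 61.4%, and the median GC content was 44.2% against 63.5%. Of 40 genes with a TATAAA match on the coding strand, 38 had one 20 to 40 bases before the start site.

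**Figure D1:**
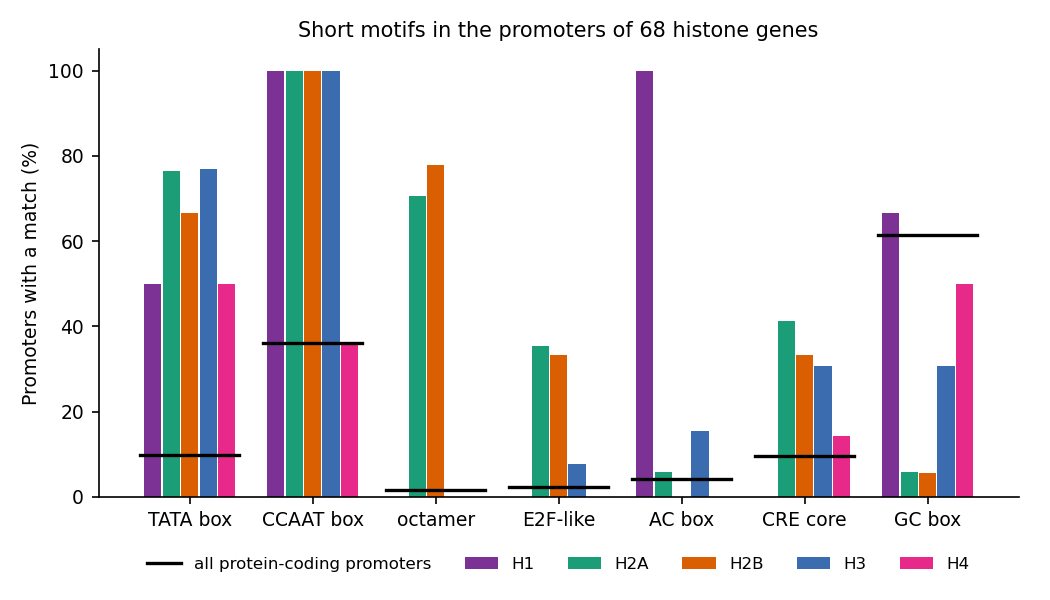
Share of promoters (%, y axis from 0) with a match to each of 7 motifs (x axis) in the 250 bp before to 50 bp after the start site, as a bar for each histone class and a black line for all 20033 protein-coding genes. The octamer bars appear in H2A and H2B alone (70.6% and 77.8%), the AC box (AAACACA) reaches 100% in H1, and the CCAAT box reaches 100% in every class but H4 (35.7%, beside 36.1% of all promoters).

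The 3′ end gave a check of the list that the selection rule had not used. The histone stem-loop was found in all 68 genes, 22 to 67 bases past the stop codon (median 35). It took 10 distinct forms, and the commonest, shared by 40 genes, is the one seen in H1-5. Examples from 5 classes are shown with 5 flanking bases on each side and the stem-loop in capitals. They lie at the 3′ ends of the single exons, at chr6:27866792-27866817 (minus strand), chr6:27133510-27133535 (plus), chr6:27132316-27132341 (minus), chr6:26270918-26270943 (minus) and chr6:27831173-27831198 (minus) in hg38.
H1-5: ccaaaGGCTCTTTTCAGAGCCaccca
H2AC11: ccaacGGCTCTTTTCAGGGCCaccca
H2BC11: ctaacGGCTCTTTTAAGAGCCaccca
H3C8: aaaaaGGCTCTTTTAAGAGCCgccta
H4C12: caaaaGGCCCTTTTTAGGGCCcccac

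The peak lists held 58563 to 79020 peaks per library and no read totals, so sequencing depth was not known. Each peak has a fold enrichment, the pile-up of fragments at its summit over the caller's local background. CB-6644 replicate 2 and DMSO replicate 1 stood apart by their shortest peaks, 65 and 91 bp against 131 to 152 bp in the other 4 libraries, here called the long-peak libraries. The genome-wide background recovered from each list was 0.782, 0.208 and 0.980 with CB-6644 and 0.583, 1.19 and 1.23 with DMSO. The median local background over histone genes with a promoter peak was 1.46 in CB-6644 replicate 2 and 7.44 to 19.8 in the other 5. Both parts of the fold have 1 added, which weighs more where the background is low. The labelled cell type was checked at the promoters, where 9 of 9 plasma cell genes (SDC1, PRDM1, IRF4 and others) had a promoter peak in all 6 libraries, as did 1 of 5 B cell genes (PAX5), 0 of 4 T cell genes and 1 of 4 myeloid genes (CD14).

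A promoter was called open in a library when at least 1 peak lay within 1000 bp of the start site, and in a bulk assay fewer cells with an open promoter and less opening per cell cannot be told apart. Of the 68 histone genes, 50 (73.5%) had such a peak in all 6 libraries, 8 (11.8%) in some and 10 (14.7%) in none. The same shares over all protein-coding genes were 61.2% in all 6, 5.16% in some and 33.6% in none. Per library, 55, 52 and 54 histone genes had a promoter peak with CB-6644 and 57, 58 and 58 with DMSO. The groups did not overlap, and neither did they over all genes (12637 to 12709 with CB-6644 and 12823 to 13004 with DMSO).

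The 10 closed promoters included the germline histone genes H1-6, H2AC1 and H2BC1, known for expression in testis. The H4 genes H4C6, H4C7 and H4C13 also had no peak in any library. The last 4 were the neighbours H4C14, H3C14, H3C15 and H4C15 in the chromosome 1 cluster. There, 100% of the 150-base windows within 1000 bp of the start site held only 31-base stretches that occur more than once in the genome. Such stretches may recur at different places and read pairs were not considered, so some reads there may still be placed uniquely. At these 4 genes closed chromatin and unplaced reads cannot be told apart. The next most repeated were H2AC18 and H2AC19, at 87.1% and 87.0%, followed by H3C13 (32%) and H2BC18 (28.6%). Across the 68 genes, 46 had no such window and 6 were above 50%.

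Of the 8 genes open in only some libraries, 7 had a peak in every DMSO library and 0 in every CB-6644 library, and 6 lacked one in CB-6644 replicate 2. The same split is not given here for the 1033 protein-coding genes open in only some libraries. Over all genes, too, fewer promoters had a peak with CB-6644, so this lean cannot be read as particular to the histone genes. H1-5, a linker histone gene, was open in the 3 DMSO libraries and in none of the CB-6644 libraries. Its DMSO peaks stood at the 15.6th, 9.37th and 9.76th percentile of fold enrichment in their lists, near the weak end, with summits 161 to 188 bp inside the gene. With a window of 2500 bp in place of 1000 bp, H1-5 also had a peak in at least 1 CB-6644 library. A peak in the DMSO group only was seen in 0.265% of all genes, and the reverse, which 0 histone genes showed, in 0.0399%. H2BC6, H3C6 and H4C11 were open in all libraries but CB-6644 replicate 2, and the pair H2AC25 and H2BC26 shared 1 peak that was missing in CB-6644 replicates 1 and 3. H2AC18 and H2AC19 had peaks in 4 libraries each, and the summits of H2AC18 lay before the start site, at -769 bp at the farthest and -757 bp at the nearest.

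The strength of a promoter was first read as the percentile of the fold enrichment of its strongest peak among all peaks of the same library. Library medians over the histone genes were 37.6, 58.8 and 31.9 with CB-6644 and 38.4, 27.2 and 26 with DMSO. The medians over all promoters with a peak were 71.1 to 84.0 and 69.1 to 79.8. By this ratio the median histone promoter ranked below the median promoter in each of the 6 libraries, and the groups overlapped. Genes that share a peak share its values: the 50 genes open in all libraries used 40 distinct sets of peaks, and 9 of the 10 shared sets belonged to an H2A and H2B pair.

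By this ratio, H4 promoters had the highest class median and H3 promoters the lowest. The class medians of the group means were 60.2 with CB-6644 and 72.5 with DMSO for the 8 open H4 genes, 47.9 and 31.2 for 13 H2A genes, 44.3 and 34.8 for 15 H2B genes, 44.6 and 35.7 for 4 H1 genes, and 26.9 and 25.4 for 10 H3 genes. Gene by gene, CB-6644 minus DMSO was above 0 in 4 of 8 H4, 13 of 13 H2A, 13 of 15 H2B, 3 of 4 H1 and 6 of 10 H3 genes. The median of the H4 differences was 0.19 points, so the H4 medians above do not show a fall shared by the class. Over the 50 genes the difference was above 0 in 39 and below 0 in 11, with a median of 7.67 points against 1.08 over all 12268 promoters tested. Over all promoters it was above 0 in 7345 of 12268. The median was -0.16 points with CB-6644 replicate 2 left out alone, and 4.34 points in the 4 long-peak libraries, where the short-peak library of each group is left out. In the limma test with Benjamini-Hochberg adjustment over all promoters, 0 of 50 histone genes passed in either direction, and over all promoters 0.00815% were called lower and 0.00815% higher. At an unadjusted p under 0.05 there were 3 of 50 and 384 of 12268.

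All 3 CB-6644 percentiles lay above all 3 DMSO percentiles in 12 of 50 histone genes, where 2.20% of all promoters did so, and below them in 2 of 50, where 5.58% did. Without CB-6644 replicate 2 the lower count was 11, and without DMSO replicate 1 the higher count was 27. The shares over all promoters with these libraries left out are not given here, so these counts cannot be read as particular to the histone genes. H2AC16, an H2A gene at chr6:27865317-27865798, had percentiles of 71.1, 60.8 and 60.8 with CB-6644 and 37.8, 42.9 and 43.9 with DMSO. H4C9 had 51.3, 64.3 and 51.6 with CB-6644 and 79.1, 74.1 and 77.3 with DMSO. In these 2 genes the groups separated in opposite directions. With 3 libraries against 3, the smallest p an exact two-sided permutation test can give is 0.1, and both genes stood at it.

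In each gene of this paragraph the groups overlapped. H2BC21 and H2AC20, a pair with 1 shared peak, gave 35.3, 78.6 and 29.7 with CB-6644 and 35.6, 19.2 and 20.4 with DMSO, so that their large mean difference rested mostly on CB-6644 replicate 2. H4C12 gave 76.9, 35.8 and 81.2 with CB-6644 and 87.3, 81.0 and 93.6 with DMSO, again with the second CB-6644 library far off. H3C13 gave 51.6, 11.6 and 42.4 against 60.5, 40.8 and 47.8. H4C4 was the strongest H4 promoter, at 78.0, 84.6 and 74.1 against 80.2, 78.8 and 74.2. Its summits sat 69 or 70 bp inside the gene in all 6 libraries. The weakest open promoters were H1-1, at 1.05, 24 and 2.67 against 22.4, 1.44 and 1.33, and H3C8, at 2.22, 22.2 and 3.45 against 32.1, 13.4 and 11. In both, the library with the highest percentile was 1 of the 2 with the shortest peaks.

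Within the other classes, the pair H2BC11 and H2AC11, whose shared promoter is printed above, led the H2A genes with 58.1, 69.99 and 57.4 against 53.3, 45.4 and 40.3 for H2AC11. H2AC7 was the weakest open H2A promoter, at 26.5, 33.4 and 32.1 against 19.1, 15.8 and 16.4. In both H2A genes the CB-6644 values lay above the DMSO values. H2BC10 ranked highest among H2B genes (58.3, 77.0 and 53.4 against 67.8, 52.3 and 47.9) and H2BC5 lowest (17.4, 30.6 and 19.6 against 26.7, 14.3 and 13.4). H1-2 led the H1 genes, at 49.1, 73.2 and 51.3 against 67.3, 55.2 and 53.5. H3C7 led the H3 genes, at 48.3, 66.8 and 41.8 against 38, 30.9 and 35.4, where the groups separated, and H4C1 was the weakest H4 promoter, at 19.3, 44 and 17.9 against 29.5, 21.1 and 23.7, where they overlapped.

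A fold enrichment is a ratio, and its parts gave a different order. The pile-up at the summit and the local background were recovered from the fold and the p-value of each peak, which is possible because both follow from the same pair of numbers. By the percentile of the pile-up, library medians over the histone genes were 77.8, 68 and 79.9 with CB-6644 and 80.7, 85.4 and 88.0 with DMSO, without overlap. Over all promoters they were 86.2, 88.0 and 87.1 with CB-6644 and 89.2, 88.5 and 86.6 with DMSO, so that the histone genes stood above the median promoter in DMSO replicate 3 and below it in the other 5 libraries. The class order also differed from that of the ratio: median pile-up percentiles over all libraries were 84.7 for H2A, 82.8 for H2B, 79.2 for H1, 79.1 for H4 and 74.1 for H3 genes. CB-6644 minus DMSO was below 0 in 50 of 50 histone genes and in 8873 of 12268 promoters tested, with medians of -8.32 and -1 points. The percentile of the p-value gave a median of -6.94 points, with 47 of 50 histone genes and 8680 of 12268 promoters below 0. The sign of the median difference therefore turned with the measure: it was above 0 by the ratio, and below 0 by the pile-up and the p-value. By the ratio the library medians overlapped between groups, and the median difference was -0.16 points without CB-6644 replicate 2.

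**Figure D2:**
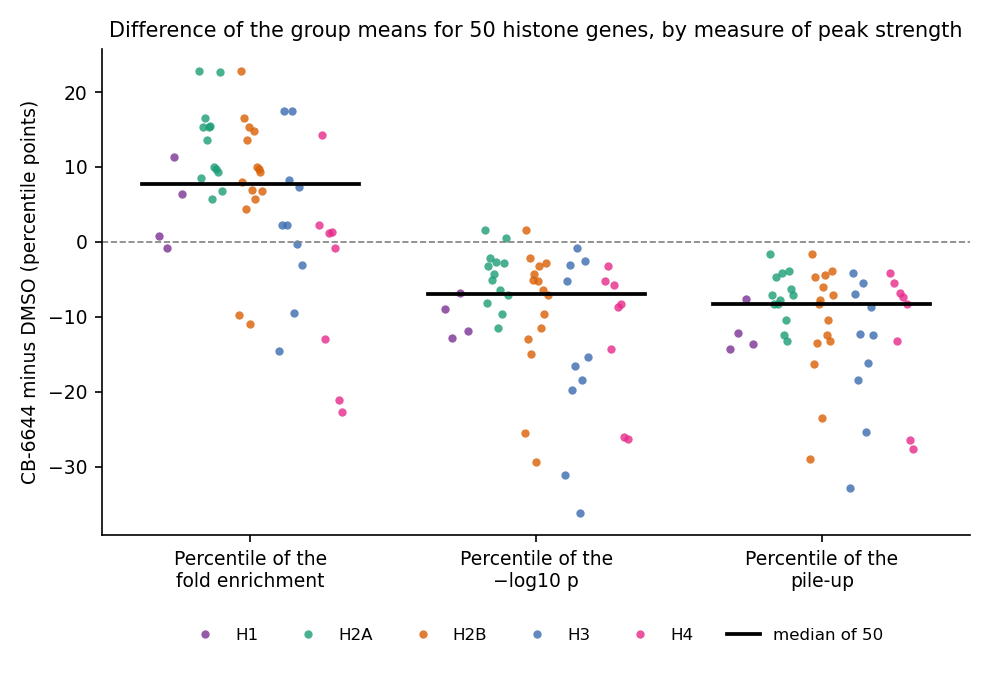
CB-6644 minus DMSO difference of the group means (percentile points, y axis) for the 50 histone genes with a promoter peak in all 6 libraries, by fold enrichment, −log10 p and pile-up (x axis), with each gene as a point coloured by class and the median of the 50 as a black bar. The medians are 7.67, -6.94 and -8.32 points, and all 50 points of the pile-up lie below the dashed line at 0.

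All 3 CB-6644 pile-up percentiles lay below all 3 DMSO values in 27 of 50 histone genes (54.0%), and in 18.3% of all promoters. One histone gene, H4C9, was called lower by limma with Benjamini-Hochberg adjustment, where 0.269% of all promoters were. Its pile-up percentiles were 54.0, 53.6 and 54.2 with CB-6644 and 80.1, 79.1 and 82.1 with DMSO, an adjusted p of 0.0167. The groups were more than 20 points apart and tight within each group. One histone gene was called when CB-6644 replicate 2 was dropped, and 0 when any of the other 5 was.

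In the 4 long-peak libraries alone, 2 of each group, 54 histone genes were open. Of these, 51 had both CB-6644 pile-up percentiles below both DMSO values, against 38.3% of all promoters. The genome-wide background of these libraries was 0.782 and 0.980 with CB-6644 and 1.19 and 1.23 with DMSO. Their lists held 59393 and 58563 peaks with CB-6644 and 71098 and 65569 with DMSO. Treatment and these library traits cannot be told apart in this subset, here or in later counts from it. Limma called 13 of the 54 lower, where 1.28% of all promoters were called. They came from every class but H2A. The H1 genes were H1-2 (means of 81.9 and 93.9), H1-3 (63.4 and 80.5) and H1-4 (86.6 and 94.4). The H2B genes were H2BC9 and H2BC18, and the H3 genes were H3C3, H3C4, H3C8 and H3C13. The H4 genes were H4C3, H4C9, H4C11 and H4C12. H4C11 had the largest difference, with means of 34.1 and 69.2 and an adjusted p of 0.00841 by limma with Benjamini-Hochberg adjustment.

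As percentiles over all 6 libraries, CB-6644 lay wholly below DMSO in 40 of 50 histone genes by the local background and 27 by the pile-up. Over all promoters these counts were 2939 and 2249 of 12268. In the long-peak libraries both were 51 of 54, beside 4580 and 4766 of 12443 promoters. Taken over the genome-wide background, with all 6 libraries, they were 45 and 13 of 50, beside 1200 and 76 of 12268 promoters. The local background is the caller's estimate of fragments in the surroundings of the peak. From here on it is given over the genome-wide background of the same library, so that 10 means 10 times the genome-wide level. Library medians over the open histone genes were 10.2, 7.02 and 11.2 with CB-6644 and 12.8, 14.1 and 16.1 with DMSO, or 9.46 ± 2.17 against 14.3 ± 1.70 (SD, n = 3). Over all promoters with a peak they were 8.21, 9.49 and 8.68 with CB-6644 and 9.13, 8.53 and 7.97 with DMSO. All 3 CB-6644 medians of the histone genes lay below all 3 DMSO medians, while the medians of all promoters overlapped. In the DMSO libraries the histone genes stood above the median promoter in each library, and with CB-6644 they did so in replicates 1 and 3 but not in replicate 2.

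**Figure D3:**
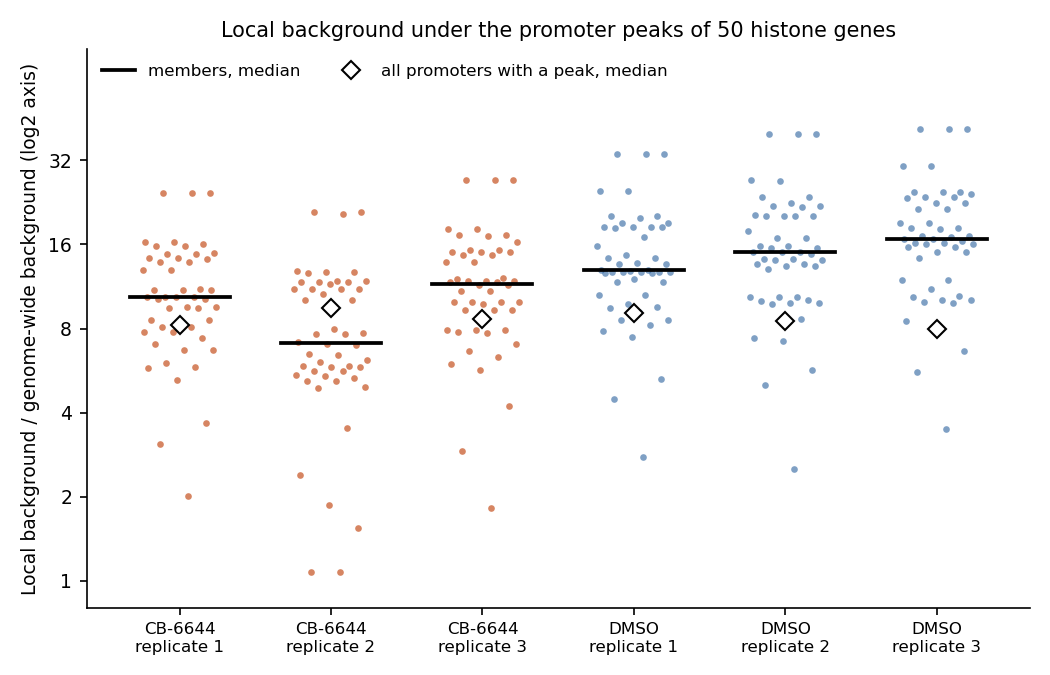
Local background over the genome-wide background of the library (y axis, log scale) at the 50 histone genes with a promoter peak in all 6 libraries, 1 column of points per library (x axis), with the median of the genes as a bar and the median of all promoters as a diamond. The bars of the 3 CB-6644 libraries lie below those of the 3 DMSO libraries, and the diamonds stay between 7.97 and 9.49.

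Gene by gene, the log2 difference in local background was below 0 in 50 of 50 histone genes and in 4911 of 12268 promoters tested. Among the histone genes it ran from -1.59 to -0.05, with a median of -0.67 against 0.04 over all 12268 promoters tested. The CB-6644 values lay wholly below the DMSO values in 45 of 50 (90.0%), and in 9.78% of all promoters. The 5 that overlapped were H3C1, H4C1, H3C10 and the pair H2BC13 and H2AC13. Genes that lie near each other share part of this background, and a peak adds to its own background, so the 50 values are not independent and the pile-up and background are not separate measurements. The window sizes behind the local background are not given in the sources used here. Each library was read at its own strongest peak, for the pile-up and the width as well. With CB-6644 the median summits of these peaks lay at -70.5, -68 and -63.5 bp from the start site. With DMSO they lay at 35, 33.5 and -8 bp, so a gene was not always compared at the same site. What this shift does to the differences was not tested.

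Limma with Benjamini-Hochberg adjustment over all promoters called 3 of the 50 histone genes lower (6%), and 0.416% of all promoters. At an unadjusted p under 0.05 there were 43 of 50 and 1483 of 12268. H1-3, a linker histone gene at chr6:26234212-26234987, had local backgrounds of 5.83, 4.89 and 5.67 times the genome-wide level with CB-6644 and 9.52, 10.1 and 10.4 with DMSO. Its log2 difference was -0.88 ± 0.10 (SE, n = 3 per group, limma adjusted p = 0.0201). H4C9, an H4 gene at chr6:27139282-27139678, had 3.08, 2.396 and 2.91 with CB-6644 and 5.29, 5.04 and 5.61 with DMSO. Its log2 difference was -0.93 ± 0.12 (limma adjusted p = 0.0295), so that in both genes the DMSO level was well above the highest CB-6644 level. H4C2, an H4 gene at chr6:26026896-26027283, had 10.4, 10.6 and 9.92 with CB-6644 and 14.7, 15 and 17 with DMSO. Its log2 difference was -0.59 ± 0.083 (limma adjusted p = 0.0407). The number of calls depended on single libraries, since 2 were left when CB-6644 replicate 2 was dropped and 0 when any of the other 5 was.

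The count of calls moved with how the shortest-peak class was treated. With the class as a term in the limma fit, 45 of the 50 histone genes (90.0%) were called lower, and 4.0% of all promoters. The 5 not called were H4C5, the pair H3C13 and H2BC18, and the pair H4C1 and H3C1. In the 4 long-peak libraries alone, 4 of 54 were called (H1-3, H3C4 and the pair H2AC7 and H2BC7, each at a limma adjusted p of 0.0440), and 0.305% of all promoters. There the CB-6644 values lay below the DMSO values in 49 of 54, and in 20.9% of all promoters. As a percentile among all peaks of the library, the local background was called lower by limma in 23 of 50 histone genes, where 3.39% of all promoters were called, and in 50 of 54 in the long-peak libraries, where 7.43% were.

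**Figure D4:**
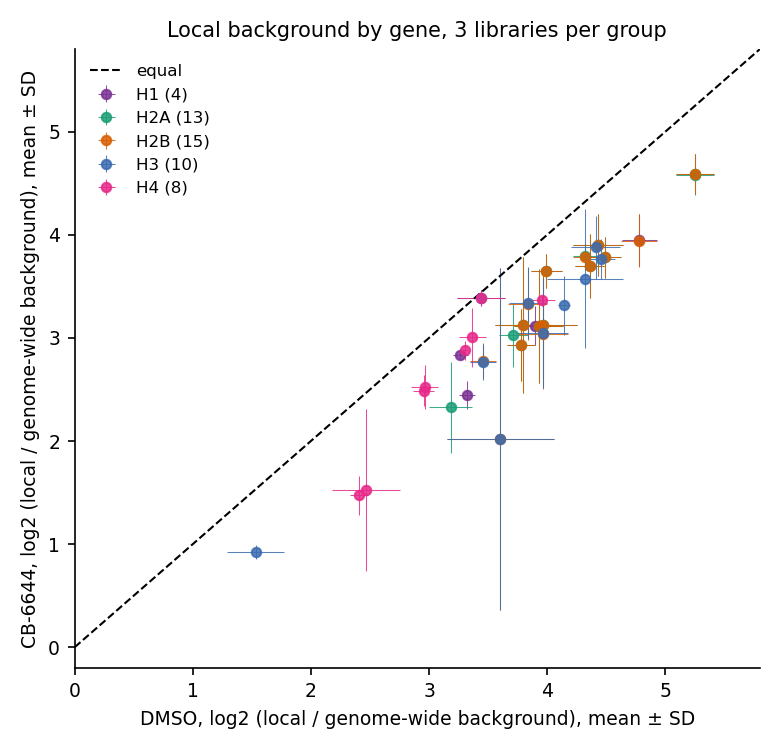
Local background over the genome-wide background (log2, mean ± SD of 3 libraries) with CB-6644 (y axis) against DMSO (x axis) for each of the 50 histone genes open in all libraries, coloured by class, with a dashed line where both are equal. All 50 points lie below the line, from -0.05 at H4C1 and H3C1 to -1.59 at H3C13 and H2BC18, whose CB-6644 error bar is the longest.

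The difference was below 0 in every open gene of each class, and differences between classes were not tested. Class medians of the log2 difference were -0.81 for H1, -0.67 for H2A, -0.68 for H2B, -0.69 for H3 and -0.45 for H4. The medians of the 4 clusters with open genes were -0.67, -0.69, -0.81 and -0.67. H2BC21 and H2AC20 had the highest background of the named genes, at 24.5, 20.9 and 27.2 times the genome-wide level with CB-6644 and 33.7, 39.7 and 41.5 with DMSO. H2AC11 and H2BC11 shared values of 13.9, 12.7 and 15 against 18.5, 20.3 and 21.4 at H2AC11. In both pairs every CB-6644 library was below every DMSO library. H1-2 had 8.58, 7.69 and 9.96 against 13.7, 14.8 and 16.5, with a limma adjusted p of 0.0530. H2AC16, whose fold percentile was higher with CB-6644, had a background of 6.01, 3.53 and 5.96 against 8.23, 8.69 and 10.5. For this gene, the higher ratio stood beside a lower denominator and pile-up percentiles that overlapped (79.6, 56.6 and 76.5 against 68.3, 78.9 and 84.4).

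Some of the largest differences rested on CB-6644 replicate 2. H3C13 had 7.80, 1.07 and 7.92 against 8.58, 13.4 and 15.7, and its log2 difference of -1.59 was -0.88 in the long-peak libraries. H4C12 had 3.67, 1.55 and 4.22 against 4.47, 5.68 and 6.64, and its -0.94 became -0.64. Both remained below the DMSO range in all 3 CB-6644 libraries. The differences nearest 0 were those of H4C1 and its neighbour H3C1, at 10.4, 11 and 9.97 against 12.8, 9.88 and 10.1 for H4C1. Their difference was within the spread between libraries, and it turned to 0.02 in the long-peak libraries.

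Peaks at the histone genes were also narrower on average in the CB-6644 libraries. Median widths were 694, 207.5 and 659.5 bp with CB-6644 and 594, 933 and 1007 bp with DMSO, and the second CB-6644 library had the narrowest peaks. The log2 difference was below 0 in 50 of 50, and also in 11644 of 12268 promoters tested, so the direction alone did not set the histone genes apart. Its median was -0.83 against -0.34 over all promoters tested, and it was -0.14 without CB-6644 replicate 2. The groups did not overlap in 16 of 50 (32%), and in 4.40% of all promoters. Limma with Benjamini-Hochberg adjustment called 0 of 50 narrower and 0% of all promoters, with 5 of 50 and 86 of 12268 at an unadjusted p under 0.05. The widest peaks belonged to the pair H2BC12 and H2AC12, at 1096, 438 and 1049 bp with CB-6644 and 1100, 1575 and 1570 bp with DMSO at H2BC12. H1-3 had 395, 125 and 504 bp against 472, 1393 and 1372 bp, so that the 2 long-peak DMSO libraries were set apart from the other 4.

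Because the genes are short, a promoter peak can reach across the transcript. Peaks covered on average 55.7%, 16.6% and 57.2% of the 68 histone transcripts with CB-6644 and 57.6%, 68.8% and 69.7% with DMSO. Over all protein-coding genes, the averages were 1.24% to 2.90% and 2.38% to 3.27%. The means differed by -22.2 points, and by -8.91 points without CB-6644 replicate 2, with no overlap between groups. Gene by gene, coverage was lower with CB-6644 in 50 of 50 open histone genes and in 11181 of 12268 genes open in all libraries. The direction alone therefore did not set the histone genes apart. Among the 50 open histone genes, peaks spanned the whole transcript in 8, 0 and 8 genes with CB-6644 and in 5, 19 and 23 with DMSO. H1-2 was covered over 75.5%, 24.9% and 58.5% of its length against 49.4%, 100% and 100%. H4C4 was covered in full in 5 libraries and over 59.6% in CB-6644 replicate 2. The full spans at H1-2 were thus in DMSO replicates 2 and 3, while H4C4 was spanned in both groups.

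**Figure D5:**
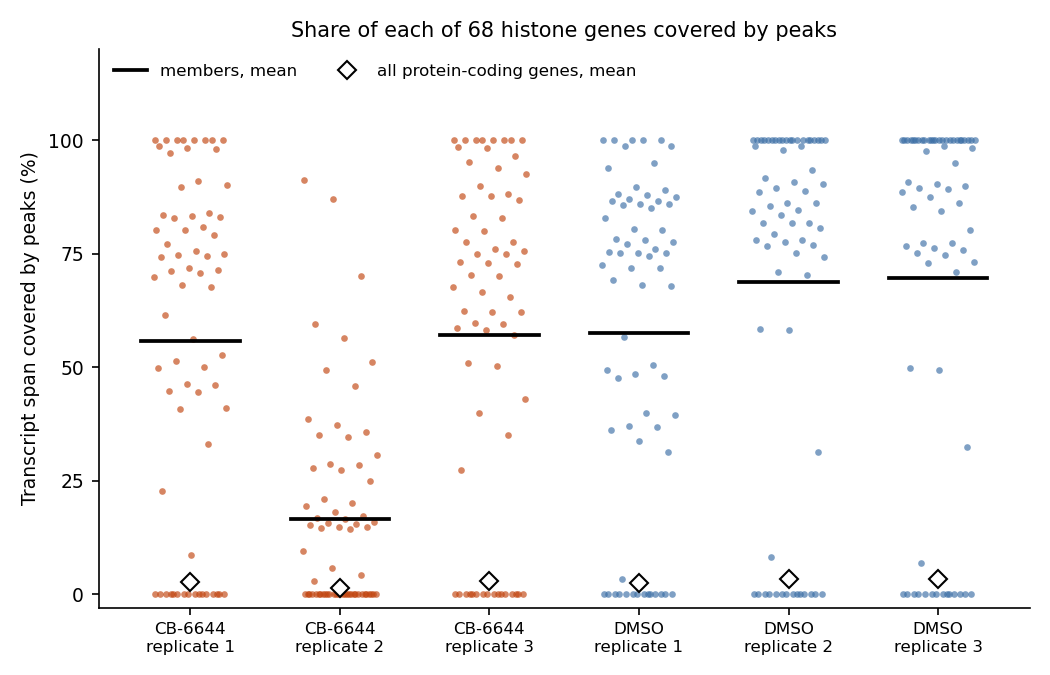
Percent of the transcript span covered by peaks (y axis) for the 68 histone genes in the 6 libraries (x axis), with each gene as a point, the mean of the histone genes as a bar and the mean of all protein-coding genes as a diamond. The bars stand at 55.7%, 16.6% and 57.2% with CB-6644 and at 57.6%, 68.8% and 69.7% with DMSO, and the diamonds stay under 3.27% or at it.

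Related genes gave a scale for these values. A list of 21 factors for histone gene expression included NPAT, SLBP and the U7 snRNP protein LSM10. Their log2 difference in local background was below 0 in 4 and above 0 in 17, with a median of 0.10. For 9 replication-independent histone genes open in all libraries, of 12 listed, the median was -0.04, and for 38 DNA replication genes it was -0.01. The groups did not overlap on the lower side in 2 of 21, 3 of 9 and 3 of 38 of these, against 45 of 50 histone genes and 9.78% of all promoters. By fold percentile the largest differences in these lists were those of CCNE1, a cyclin that acts with CDK2 on NPAT (62.9 with CB-6644 and 46.1 with DMSO), and LSM10 (7.38 points). In the other lists they were H2AZ1 (15.6 points) and H2AJ (10.4 points), and POLE2 (-14.0 points) and RFC3 (-13.5 points). None of these 6 passed limma. Of the plasma cell genes, 9 of 9 had a background difference below 0, with a median of -0.25, and 6 did not overlap. The lower side was therefore not particular to histone genes.

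Other protein-coding genes within 100 kb of a histone gene numbered 20, and 8 were open in all libraries. Their median log2 background difference was -0.03, and 2 did not overlap on the lower side. One of these, ENSG00000282988, shared the peak of H2AC7 and H2BC7. The other, RNF187, lies beside H2AC25 and H2BC26 and had a difference of -0.70 (limma adjusted p = 0.0655).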

How the data were processed

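Omni-ATAC peak lists of 6 MM.1S libraries, 3 per group, were analysed on hg38. Per the submitters' processing notes, reads were aligned with Bowtie2 2.4.2 and peaks called per library with MACS3 3.0. The authors deposited narrowPeak lists in which column 7 is the fold enrichment at the summit (a ratio, pile-up over local background, each plus 1), and columns 8 and 9 are −log10 p and −log10 q. The deposited score column, 10 times −log10 q, was not used. The lists hold no read counts, so the edgeR test of the study could not be run and no counting interval is given.

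For each protein-coding gene of GENCODE release 44, the peak with the highest fold within 1000 bp of the canonical start site was taken. Percentiles were computed within each library. The pile-up and local background were solved from fold and p-value, with a pile-up within 0.05 of a whole number in 100% of peaks; the genome-wide background was the lowest value of a list. Normal scores of percentiles, log2 widths and log2 backgrounds were tested with limma 3.58.1 (R 4.3.3) with a mean-variance trend. Adjustment was by Benjamini-Hochberg over all genes with a peak in all libraries, and genes were called at an adjusted p under 0.05. The fit was also run on simulated data with independent noise for each gene. Those data had no library effect or peak shared between genes, so the run does not show how the test behaves under these. Repeated sequence was estimated from the genome as the share of 150-base windows in which every 31-base stretch occurs more than once, without regard to read pairs. Other steps ran in Python 3.11.15 (pandas 2.3.3, numpy 2.4.6, scipy 1.17.1), with figures from matplotlib 3.10.9.

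The members and gene lists were chosen with earlier results of these data known. Genes were named by rule: the highest and lowest mean fold percentile in each class, the 3 largest differences each way, the 3 widest, those called, those open in some libraries, up to 8 with no peak, and the 2 largest differences in each comparison list. H4C7 and H4C13, the genes that overlapped or were left uncalled in the local background, the members called in the long-peak libraries, ENSG00000282988 and RNF187 were added after their values were seen. The pile-up and background measures were also chosen after seeing the data.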

Additional observations from a re-analysis of the deposited data

How the results depend on the processing

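Depth could not be read from the lists, peaks and backgrounds are shared between neighbouring genes, and 2 libraries, 1 of each group, have shorter peaks, so peak lengths and fold percentiles depend on them. The median fold percentile difference (7.67 points) was -6.94 by −log10 p, -8.32 by pile-up and -7.73 by pile-up in the long-peak libraries, 4.34 by fold in the long-peak libraries and 16.8 with equal numbers of peaks, and ran from -0.16 to 12.8 when 1 library was left out. Calls by fold percentile (0) were 1 in the long-peak libraries, 3 with the shortest-peak class as a term, 1 by pile-up, and 0 to 1 without 1 library. Genes lower without overlap (2) were 24 by −log10 p, 13 in the long-peak libraries, 1 after quantile normalization, 27 by pile-up and 2 to 11 without 1 library. Genes higher without overlap (12) were 0 by −log10 p, 5 among promoter peaks, 28 with equal numbers of peaks, 28 in the long-peak libraries, 0 by pile-up and 12 to 27 without 1 library. With the 20000 top peaks per library, 17 histone genes were open in all libraries and 22 in none, in place of 50 and 10; leaving out 1 library gave 50 to 53. Local background calls (3) were 45 with the class term, 23 as a percentile, 50 as a percentile in the long-peak libraries, and 0 to 2 without 1 library, with medians from -0.77 to -0.50 and 45 to 48 genes without overlap. Pile-up calls (1) were 13 in the long-peak libraries and 0 to 1 without 1 library, with medians from -11.3 to -5.44 points. The pile-up over the genome-wide background differed by a median of -0.17 log2, and was below 0 in 41 of 50 histone genes. Over all promoters tested the median was 0.21, with 1833 of 12268 below 0. Without 1 library the histone median ran from -0.40 to -0.10. This measure gave 0 calls, 5 in the long-peak libraries and 7 with the class term. The log2 difference in local background of H4C1 (-0.05) was 0.023 in the long-peak libraries and ran from -0.12 to 0.063 without 1 library, above 0 without DMSO replicate 1. Width differences ran from -1.13 to -0.14 log2, and coverage differences from -29.2 to -8.91 points, without 1 library. A difference that kept its sign could still move in size, as the ranges for width and coverage show. For single genes, the alternatives were the long-peak libraries and each library left out. Under them 18 local background values missed the threshold, all of them at the 3 called genes H1-3, H4C9 and H4C2. H4C2 missed it under every one of these alternatives. At the other named genes 1 value passed it, that of H2AC7 in the long-peak libraries. Where no share over all promoters is printed above for a setting, its counts cannot be read as particular to the histone genes. With the replicate number as a block, 0 genes were called by percentile, width or local background. The labels do not say whether libraries of the same number were paired. Libraries of the same number had deviations correlated at -0.56, -0.35 and 0.32 in fold percentile. Those of the 2 short-peak libraries, CB-6644 replicate 2 and DMSO replicate 1, were correlated at 0.67. Because these 2 libraries differ in number, the correlations cannot decide whether the samples were paired. The causes were not tested.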
